A study of Mus musculus with 4 samples.

Results

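MicroRNAs (miRNAs) were compared between MC3T3-E1 cells that overexpressed Wnt3a and MC3T3-E1 cells that overexpressed GFP. MC3T3-E1 is a clonal osteoblastic cell line from mouse calvaria. Both cultures received their gene from a recombinant adenovirus vector and were kept in proliferation medium, as were a Wnt4 and a Wnt5a culture that serve here for side-by-side values. The GFP culture is the control and also carries the vector, so the comparison is between transgenes and not between infected and uninfected cells. The promoter of the vector, its dose and the time after infection are not given in the sources used here. Total RNA of each culture was labelled with the Hy5 dye and read on 1 one-colour LNA array, so the comparison rests on 2 of the 4 arrays and has no replicates. Each difference below is therefore between 2 arrays, and no p-value can be given. The members are all 1898 usable miRNA probes on both arrays, of which 612 were detected on both, and mature sequences were matched to 1612 of the 1898.

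Wnt3a is a secreted ligand best known for stabilising beta-catenin, which enters the nucleus and activates target genes, a pathway that promotes the osteoblast lineage. The series was made to look for miRNAs by which Wnt and TGF-beta signalling interact. A miRNA is a short RNA cut from a hairpin precursor, whose 5p and 3p arms can both give a mature product. It lowers the output of messenger RNAs mainly by pairing through its seed, bases 2 to 8 from its 5′ end, so miRNAs that share a seed share many predicted targets.

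The mature sequences of the miRNAs that differed most between the Wnt3a and the GFP array are shown first, since their seeds and base composition recur in the results. They come from RefSeq, assembly GRCm38.p6, are written 5′ to 3′, and have the seed in capitals. The following 5 were at least 2-fold lower on the Wnt3a array.
miR-140-3p: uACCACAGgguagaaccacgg
miR-146b-5p: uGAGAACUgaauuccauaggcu
miR-503-5p: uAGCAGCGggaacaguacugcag
miR-322-5p: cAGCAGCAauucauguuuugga
miR-322-3p: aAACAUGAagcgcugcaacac
The following 3 were at least 2-fold higher on the Wnt3a array.
miR-7036a-5p: aGCGGGGUucgguggggaagaga
miR-711: gGGACCCGgggagagauguaag
miR-21a-5p: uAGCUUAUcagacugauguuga
The genes lie on mouse chromosome 8 for miR-140, 19 for miR-146b, X for miR-322 and miR-503, 5 for miR-7036a, 9 for miR-711 and 11 for miR-21a.

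Signals are given as the spot median in intensity units before any correction. Log2 differences are Wnt3a minus GFP after background correction and quantile normalization of the 4 arrays, and their standard error (SE) comes from replicate spots of control probes, which covers spot noise within an array and neither hybridisation nor culture. A probe counted as detected above the mean plus 2 SD of the blank spots, a limit of 104 units for GFP and 81.7 units for Wnt3a. By that limit the GFP array had 617 detected miRNAs and the Wnt3a array 1067. The 455 detected on the Wnt3a array alone had a median signal of 86.4 units there against 95.1 units on the GFP array, and 85 of them had the higher signal on the Wnt3a array. None of them was at least 2-fold above the GFP limit.

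The Wnt3a signal was at least 2-fold higher for 3 of the 612 miRNAs with detection on both sides (0.49%), and at least 2-fold lower for 6 (0.98%). At least 1.5-fold, 9 were higher (1.47%) and 14 lower (2.29%), a balance that turned to 16 higher and 11 lower with scaling on the bright controls. Most miRNAs lay close to 0, with 337 within 0.15 on the log2 scale, a median of -0.00 and an SD of 0.30, and 48% lay above 0 and 50.2% below. The SD across miRNAs was 0.14 for Wnt4 minus GFP and 0.13 for Wnt5a minus GFP. The 3 comparisons share the GFP array, so the difference of the Wnt3a array from the mean of the Wnt4 and Wnt5a arrays is given as well where a result turns on it. The 23 miRNAs past 1.5-fold lay in 14 of the 32 printed blocks of the array, and the median difference of a block ran from -0.17 to 0.14.

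**Figure D1:**
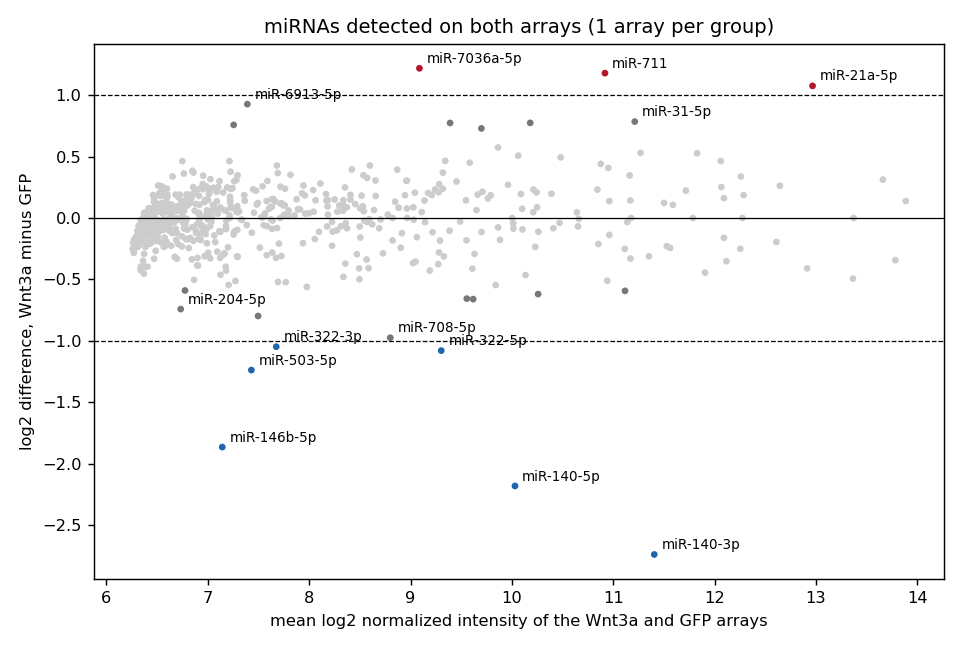
Log2 difference, Wnt3a minus GFP (vertical axis), against the mean log2 normalized intensity of the same 2 arrays (horizontal axis), 1 point for each of the 612 miRNAs detected on both. Dashed lines mark 2-fold, red and blue points lie past it and dark grey points past 1.5-fold. The arms of miR-140 are the 2 lowest points, at -2.74 and -2.18, and miR-146b-5p follows at -1.87.

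The lowest 2 miRNAs relative to GFP were the arms of miR-140, which is encoded within Wwp2 and is known in mice for its role in cartilage and the growth of long bones. miR-140-3p gave 7049, 5582 and 5727 units on the GFP, Wnt4 and Wnt5a arrays and 1135 units on the Wnt3a array. The Wnt3a array was the low one and the other 3 lay close together, and the log2 difference was -2.74 (SE 0.13), a 6.68-fold lower level. miR-140-5p gave 2379, 2096 and 2142 units on the GFP, Wnt4 and Wnt5a arrays and 535 units on the Wnt3a array. It showed the same order of arrays, with a log2 difference of -2.18 (SE 0.13), or 4.54-fold lower. Against the mean of the Wnt4 and Wnt5a arrays the differences were -2.44 for the 3p arm and -2.17 for the 5p arm. In RNA of a whole culture, fewer cells that hold a miRNA and less of it per cell cannot be told apart.

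miR-146b-5p, of a family that restrains NF-kappaB signalling through its targets Traf6 and Irak1, was the third lowest. Its signal was 299, 232 and 303 units on the GFP, Wnt4 and Wnt5a arrays and 86.3 units on the Wnt3a array. That last value was just above the detection limit of 81.7 units, and the log2 difference was -1.87 (SE 0.13), or 3.64-fold lower. So near the blank level the size of the difference depended on the background correction, and over the alternatives that gave a value it ran from -5.39 to -1.69. A limit at 5 SD or from negative control probes left it undetected on the Wnt3a array and out of the count.

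miR-322 and miR-503 come from 1 X-linked cluster, and miR-322-5p and miR-503-5p are relatives of miR-16 known to slow the cell cycle. miR-503-5p gave 285, 248 and 281 units on the GFP, Wnt4 and Wnt5a arrays and 129.9 units on the Wnt3a array. miR-322-5p gave 990.2, 903 and 1126 units on those 3 arrays and 475 on the Wnt3a array. Both were lowest on the Wnt3a array, with log2 differences of -1.24 (SE 0.13) and -1.08 (SE 0.13). miR-322-3p, the other arm of the same hairpin, gave 326, 292 and 299 units on the 3 arrays and 159 units on the Wnt3a array, a difference of -1.05 (SE 0.13). The 2 arms of miR-322 thus differed from GFP by nearly the same amount, and in the hairpin below they are the capitals.
Mir322: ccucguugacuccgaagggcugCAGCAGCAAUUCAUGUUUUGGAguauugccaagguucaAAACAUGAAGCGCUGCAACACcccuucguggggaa
The cluster has 13 probes, and 8 of them were detected on both arrays. All 8 were below 0, with a median of -0.67, against a median of -0.00 and 50.2% below 0 for all 612, and 4 of the 8 were at least 1.5-fold lower. The direction of the cluster turned with the background column subtracted and in the deposited table of processed values, in which all miRNAs had a median of 1.47. The fourth was miR-351-5p, which carries the seed of miR-125, with 263, 213 and 261 units on the GFP, Wnt4 and Wnt5a arrays, 154 units on the Wnt3a array and a difference of -0.80 (SE 0.13). The remaining members were miR-450a-5p at -0.54, miR-542-3p at -0.25, miR-542-5p at -0.18 and miR-351-3p at -0.08.

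The higher miRNAs were miR-7036a-5p, miR-711 and miR-21a-5p. miR-21a-5p, a widely expressed miRNA known to target Pdcd4, gave 6669, 6673 and 7619 units on the GFP, Wnt4 and Wnt5a arrays and 12509.8 units on the Wnt3a array. The Wnt3a array was the high one by a wide margin and the log2 difference was 1.08 (SE 0.13), or 2.11-fold higher. The normalized differences of the Wnt4 and Wnt5a arrays from GFP were 0.69 and 0.35, although the Wnt4 signal equalled the GFP signal to within 4 units, because quantile normalization sets levels by rank and few miRNAs are this bright. The Wnt4 array was dimmer for other bright miRNAs, such as let-7a-5p with 6992 units for GFP and 5710 for Wnt4. An equal signal therefore ranked higher there. Without normalization between arrays the Wnt3a difference of miR-21a-5p was 0.91. miR-711, whose gene overlaps the collagen gene Col7a1, gave 1336, 1247 and 1494 units on the GFP, Wnt4 and Wnt5a arrays and 2865 on the Wnt3a array. miR-7036a-5p gave 385, 337 and 428 units on those 3 arrays and 856 on the Wnt3a array. Both were highest on the Wnt3a array, at 1.18 (SE 0.13) and 1.22 (SE 0.13), or 2.27-fold and 2.33-fold higher. Against the mean of the Wnt4 and Wnt5a arrays miR-21a-5p was at 0.56, miR-711 at 1.06 and miR-7036a-5p at 1.11.

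How firmly each of the 9 stood past 2-fold differed. In every alternative treatment that gave a value, both miR-140 arms and miR-146b-5p were at least 2-fold lower, in 15 of 15, 16 of 16 and 13 of 13. miR-503-5p was so in 13 of 15, miR-322-5p in 13 of 16 and miR-322-3p in 11 of 15. Of the higher ones miR-7036a-5p stayed past 2-fold in 15 of 16, miR-711 in 14 of 15 and miR-21a-5p in 10 of 15. These counts include alternatives that change only which miRNAs count as detected. Such alternatives keep the main difference of a miRNA, so they cannot move it across 2-fold. The counts also include the deposited table, in which 528 of 632 miRNAs were at least 2-fold higher.

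**Figure D2:**
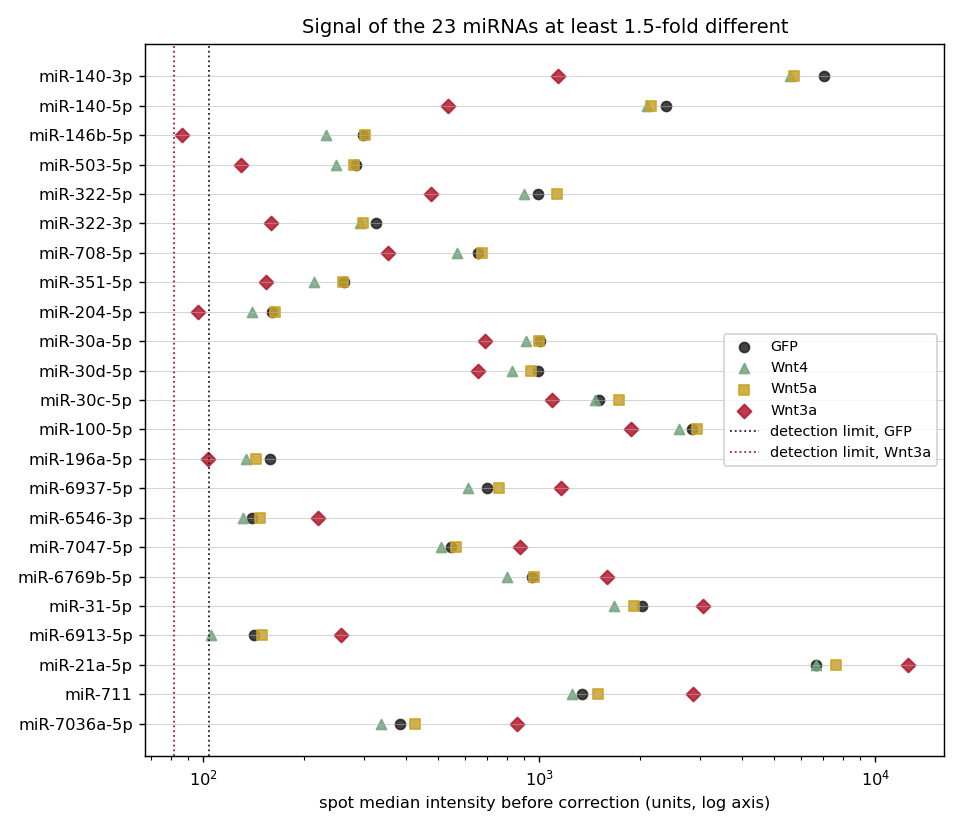
Spot median intensity before correction (horizontal log axis, units) of the 23 miRNAs at least 1.5-fold different, with 1 point per array and no error bar, since each group has 1 array. Dotted lines mark the detection limits of the GFP array (104 units) and the Wnt3a array (81.7 units). The Wnt3a point is the lowest of the 4 for the upper 14 miRNAs and the highest for the lower 9.

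Between 1.5-fold and 2-fold, 8 miRNAs were lower on the Wnt3a array, miR-351-5p among them. The sequences of those with an entry in the RefSeq table show that the miR-30 members share 1 seed.
miR-708-5p: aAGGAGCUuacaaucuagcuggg
miR-351-5p: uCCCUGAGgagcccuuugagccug
miR-204-5p: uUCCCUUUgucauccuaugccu
miR-30a-5p: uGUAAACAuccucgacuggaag
miR-30c-5p: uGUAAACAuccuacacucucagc
miR-100-5p: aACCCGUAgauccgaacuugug
miR-196a-5p: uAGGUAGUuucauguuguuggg
miR-708-5p gave 658, 568 and 676 units on the GFP, Wnt4 and Wnt5a arrays and 356 units on the Wnt3a array, a log2 difference of -0.97 (SE 0.13), just short of 2-fold. miR-204-5p, which in mouse osteoprogenitors targets the osteoblast transcription factor Runx2, gave 161, 139 and 164 units on those 3 arrays and 96.6 on the Wnt3a array. Its difference was -0.74 (SE 0.17), and its Wnt3a signal was below the GFP detection limit of 104 units though above the Wnt3a limit. miR-196a-5p, encoded in Hox clusters and a repressor of Hoxb8, gave 158, 134 and 143 units on the 3 arrays and 103 on the Wnt3a array, at -0.59 (SE 0.17). These last 2 miRNAs were dim on every array.

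The miR-30 family, which in osteoblast cultures targets Runx2 and Smad1, held 3 of these 8. miR-30a-5p gave 1002, 913 and 1001 units on the GFP, Wnt4 and Wnt5a arrays and 689.8 on the Wnt3a array, and miR-30d-5p gave 993, 828 and 948 units against 658. miR-30c-5p gave 1509, 1461 and 1726 units on the 3 arrays and 1088 on the Wnt3a array. The Wnt3a array was lowest for each, and the differences were -0.66, -0.66 and -0.62 (SE 0.13 each). Of the 11 miR-30 probes 7 were detected on both arrays, and all 7 were below 0, against 50.2% of all 612. They ran from -0.66 to -0.29, with a median of -0.48. The median was -0.01 over the 6 detected members with the background column subtracted, where miR-30d-5p was at 1.69, and 0.70 in the deposited table beside 1.47 for all miRNAs. miR-100-5p, a regulator of mTOR signalling, gave 2848, 2599 and 2944 units on the GFP, Wnt4 and Wnt5a arrays and 1877 units on the Wnt3a array. Its difference was -0.59 (SE 0.13). Each of these 8 lower miRNAs changed sign in at least 1 alternative. In the deposited table this held for all but miR-204-5p, and with the background column subtracted for miR-351-5p, miR-204-5p and miR-30d-5p.

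Between 1.5-fold and 2-fold, 6 miRNAs were higher on the Wnt3a array. Their sequences follow, since most are rich in G.
miR-6913-5p: uGGGAGACcagucagguguugg
miR-31-5p: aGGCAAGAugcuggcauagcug
miR-6769b-5p: cCUGGUGGguggggaagagc
miR-7047-5p: uGAGGGAGgagggcugggucuga
miR-6546-3p: gAGCGAAGcccaagcgccaga
miR-6937-5p: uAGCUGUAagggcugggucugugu
miR-31-5p is the best studied of them. It gave 2017, 1670.0 and 1917 units on the GFP, Wnt4 and Wnt5a arrays and 3071 units on the Wnt3a array, a difference of 0.79 (SE 0.13). miR-6913-5p gave 142, 105 and 150.1 units on the 3 arrays and 256 units on the Wnt3a array, at 0.93 (SE 0.17). For both, the Wnt3a array was the high one. The other 3 lay together for miR-31-5p, while for miR-6913-5p the Wnt4 signal lay below those of GFP and Wnt5a. miR-6769b-5p gave 951, 800.2 and 967 units against 1585 on the Wnt3a array, and miR-7047-5p gave 544, 511 and 565 units against 875. Both differed from GFP by 0.77 (SE 0.13). miR-6937-5p gave 699.7, 614 and 760.2 units against 1161, at 0.73 (SE 0.13), and miR-6546-3p gave 139.7, 131 and 147 units against 220.2, at 0.76 (SE 0.17). In all 6 the Wnt3a signal was above the 3 others. None of the 6 changed direction in any alternative that gave a value, the deposited table with its high median among them. Relative to the median of all miRNAs, miR-6769b-5p kept its direction in 15 of 16.

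The 502 miRNAs detected on both arrays that had a RefSeq sequence formed 13 groups of at least 3 that share a seed. Of all 612 miRNAs, 50.2% were below 0 and 48% above. The group with the seed GUAAACA, which holds miR-30a-5p, miR-30c-5p and miR-30e-5p, had the lowest median, -0.62. On the Wnt4 and Wnt5a arrays its median was 0.05 and -0.11. The group with the seed ACCCGUA, of miR-100-5p, miR-99a-5p and miR-99b-5p, followed at -0.51 against 0.16 and -0.08. Its 3 members did not move alike, as the following sequences and values show.
miR-100-5p: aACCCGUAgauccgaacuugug
miR-99a-5p: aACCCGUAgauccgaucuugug
miR-99b-5p: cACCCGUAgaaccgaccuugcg
miR-99a-5p gave 2534, 2423 and 2432 units on the GFP, Wnt4 and Wnt5a arrays and 1736 on the Wnt3a array, close to miR-100-5p with a difference of -0.51 (SE 0.13). miR-99b-5p gave 994, 963 and 967 units on the 3 arrays and 899 on the Wnt3a array, and its difference of -0.08 (SE 0.13) was within the spot noise. Near-identical sequences can bind each other's probes, and such cross-hybridisation was not tested.

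The AGCAGCA seed is that of miR-15 and miR-16, which target Cyclin D1 and Bcl2, and was carried by 6 detected miRNAs.
miR-322-5p: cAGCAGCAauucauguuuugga
miR-15b-5p: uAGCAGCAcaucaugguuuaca
miR-497a-5p: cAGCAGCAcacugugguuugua
miR-15a-5p: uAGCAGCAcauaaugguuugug
miR-195a-5p: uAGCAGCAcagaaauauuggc
miR-16-5p: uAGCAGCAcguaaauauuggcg
The group's median was -0.42, with 5 of 6 below 0, against 0.02 and 0.04 on the Wnt4 and Wnt5a arrays. After miR-322-5p came miR-15b-5p, with 455, 394 and 485 units on the GFP, Wnt4 and Wnt5a arrays and 340.03 on the Wnt3a array, at -0.50 (SE 0.13). miR-497a-5p was at -0.43, miR-15a-5p at -0.41 and miR-195a-5p at -0.37. miR-16-5p stood at 0.00, with 3885 units for GFP and 3374 for Wnt3a, and at -0.20 without normalization between arrays. Without the X-linked miR-322-5p the lower members of the group were thus between -0.50 and -0.37.

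Further down, the AGCACCA group of miR-29, which targets collagens and osteonectin in osteoblasts, had a median of -0.31, with miR-29b-3p at -0.55, miR-29a-3p at -0.31 and miR-29c-3p at -0.01. The GAGGUAG group, of let-7 and miR-98, had 10 members and a median of -0.20, with 8 below 0 and none above. Its lowest member was let-7d-5p, which gave 5243, 4097 and 4248 units on the GFP, Wnt4 and Wnt5a arrays and 3274 on the Wnt3a array, a difference of -0.44. Its brightest member, let-7a-5p, was at -0.19, and at -0.49 without normalization between arrays. The CCCUGAG group held miR-351-5p at -0.80, miR-125b-5p at -0.49, miR-125a-5p at -0.14, miR-6367 at 0.07 and miR-6394 at 0.34, so members with 1 seed lay on both sides of 0. Each of these groups, and those of miR-30, miR-100 and miR-15, kept a median below 0 in every alternative except the deposited table, where each stayed below the median of all miRNAs.

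The AAAGUGC seed belongs to the miR-17 to miR-92 cluster and its paralogs, which are activated by Myc and promote proliferation. With 6 members it had the highest median of the 13 groups, 0.21, against -0.06 and -0.04 on the Wnt4 and Wnt5a arrays, and 5 of 6 were above 0.
miR-17-5p: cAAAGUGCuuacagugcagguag
miR-20a-5p: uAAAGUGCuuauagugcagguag
miR-20a-5p gave 433, 423 and 457 units on the GFP, Wnt4 and Wnt5a arrays and 576 on the Wnt3a array, a difference of 0.39 (SE 0.13). miR-17-5p gave 589.5, 483 and 515 units on those arrays and 718 on the Wnt3a array, at 0.23 (SE 0.13). The Wnt3a array was the highest for both. miR-20b-5p was at 0.31, miR-106a-5p at 0.19, miR-106b-5p at 0.08 and miR-93-5p at -0.12. None of the 6 reached 1.5-fold, and the median stayed above 0 in every alternative. Of all 612 miRNAs, 1.47% were at least 1.5-fold higher. The remaining 6 groups, mostly of dim miRNAs, had medians between -0.13 and 0.14.

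**Figure D3:**
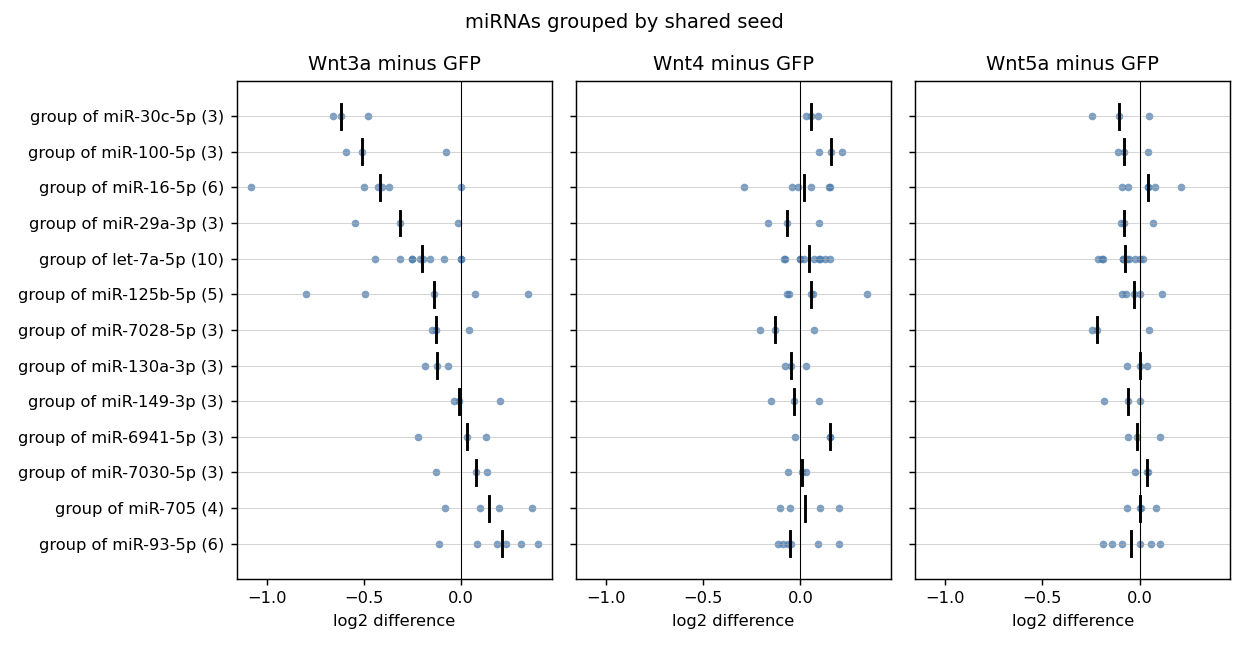
Log2 difference from the GFP array (horizontal axes) of the miRNAs in the 13 groups that share a seed, for the Wnt3a, Wnt4 and Wnt5a arrays, which share the GFP array. Points are miRNAs, the bar is the group median and the number of members is in brackets. The medians run from -0.62 to 0.21 for Wnt3a, all but the deposited table giving the same sign for the 6 lowest groups and the highest one.

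Other families were described by the same counts, beside 50.2% of all 612 miRNAs below 0. Of the 8 detected members of the miR-125, miR-99 and miR-100 families 7 were below 0, with a median of -0.35, which turned above 0 with the background column subtracted and in the deposited table. The brightest of them, miR-125b-5p, gave 14365, 12399 and 12726 units on the GFP, Wnt4 and Wnt5a arrays and 11306 on the Wnt3a array. Its difference of -0.49 (SE 0.13) came with values on the other 2 arrays of 0.34 and 0.00. miR-221-3p and miR-222-3p, which target the cell cycle inhibitor Cdkn1b, were at -0.43 and -0.21, and miR-107-3p and miR-103-3p at -0.41 and -0.11. miR-26a-5p and miR-26b-5p were at -0.24 and -0.18. All 4 detected members of the miR-130 and miR-301 family were below 0, with a median of -0.15 that turned above 0 in the deposited table.

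In the clusters of miR-193 and miR-365, 2 members stood apart. miR-193b-3p gave 336, 295 and 331 units on the GFP, Wnt4 and Wnt5a arrays and 225 on the Wnt3a array, at -0.56 (SE 0.13), and miR-365-3p gave 740.0, 629 and 733 units against 586, at -0.38 (SE 0.13). The Wnt3a array was lowest for both, while the other 4 detected members, miR-193a-3p among them, lay between -0.07 and 0.05. The median of all 6, -0.04, changed sign without normalization between arrays, with scaling on the bright controls and in both forms of the deposited table. In the miR-199 and miR-214 cluster miR-214-3p, an inhibitor of osteoblast activity through Atf4, was at -0.46 and the probe shared by miR-199a-3p and miR-199b-3p at 0.34. That probe gave 5060.0 units for GFP and 4825 for Wnt3a, and lay at -0.07 where the arrays were not normalized to each other. The cluster's median of -0.03 changed sign with scaling on the bright controls and in the deposited table.

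Higher values were found for miR-2861 and miR-3960, a pair from 1 locus that in mouse osteoblasts promotes differentiation by repressing Hdac5 and Hoxa2. miR-2861 gave 4045, 3073 and 3627 units on the GFP, Wnt4 and Wnt5a arrays and 4324 on the Wnt3a array, and miR-3960 gave 1640.4, 1468 and 2096 units against 2309. Both were highest on the Wnt3a array, at 0.46 and 0.44, and their median stayed above 0 in every alternative. Without normalization between arrays miR-2861 was at 0.10 and miR-3960 at 0.51. miR-143-3p, a miRNA of smooth muscle and fibroblasts that TGF-beta can induce, gave 1275, 1144 and 1303 units on the 3 arrays and 1813 on the Wnt3a array, a difference of 0.49 (SE 0.13). miR-145a-5p of the same cluster was at 0.20.

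Among 75 probes of miRNAs linked to osteoblast regulation, 42 were detected on both arrays, of which 29 were below 0 and 12 above, with a median of -0.13. Of all 612 miRNAs, 50.2% were below 0 and 48% above. At least 1.5-fold, 7 of the 42 were lower and none higher, against 2.29% and 1.47% of all 612. The list, like the others, was chosen with earlier results of these data known, so this is not an independent comparison. The 7 include miRNAs named above (both arms of miR-322, 3 of miR-30, miR-204-5p and miR-196a-5p), and the median turned above 0 with the background column and in the deposited table. The list mixes inhibitors and promoters of differentiation. Of 17 detected miRNAs linked to the Wnt pathway 6 were below 0 and 10 above, with a median of 0.04, and miR-21a-5p and miR-31-5p were past 1.5-fold. Of 20 linked to TGF-beta 11 were below 0 and 8 above, with a median of -0.02 that changed sign with scaling on the bright controls, with the background column, with either other detection limit, from 200 units and in the deposited table. The list held both miR-140 arms and miR-146b-5p on the low side and miR-21a-5p on the high side. The imprinted Dlk1-Dio3 cluster had a median of 0.01 over 12 detected members, a sign that turned with scaling to the median, to the 75th percentile, with cyclic loess and with no filter on dim probes. The Sfmbt2 cluster had one of 0.05 over 27 members, which turned below 0 with the background column subtracted. No member of either was past 1.5-fold, which lists of this size can show at the shares of all 612 given above.

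Both arms were detected on both arrays for 78 hairpins. The arms had the same sign in 47 hairpins, 23 below 0 and 24 above, and differed by less than 1.5-fold in 74, with a median gap of 0.18. Among all 612 miRNAs, 48% were above 0 and 50.2% below, and 1.47% were at least 1.5-fold higher and 2.29% lower. With most miRNAs this close to 0, unrelated pairs can also differ little. Such pairs were not counted, so the counts of 47 and 74 alone do not show that arms moved together. Pearson's r between the arms was 0.72 and Spearman's rho 0.38 across the 78 hairpins, which share the same 2 arrays, and without miR-140 they were 0.48 and 0.36 over 77. In 2 hairpins, those of miR-140 and miR-322, both arms were past 1.5-fold, and in 5 others 1 arm was. The widest gap was in miR-204, whose arms are the capitals in its hairpin.
Mir204: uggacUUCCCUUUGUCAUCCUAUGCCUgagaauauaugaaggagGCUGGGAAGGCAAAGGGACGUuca
miR-204-5p was at -0.74, as above, while miR-204-3p gave 185, 176 and 198 units on the GFP, Wnt4 and Wnt5a arrays and 211.4 on the Wnt3a array, at 0.23 (SE 0.17). Thus the 5p arm was lowest and the 3p arm highest on the Wnt3a array. The 3p arm was, however, at 0.21 on the Wnt4 array and 0.10 on the Wnt5a array, so its higher value was not particular to Wnt3a. In miR-351 the 5p arm was at -0.80 and the 3p arm at -0.08, and in miR-708 they were at -0.97 and -0.35. In miR-193b the order was the other way, with the 5p arm at 0.03 and the 3p arm at -0.56, and in miR-328 the arms were at 0.45 and -0.13. The 3p arm of miR-708, at 115 units for GFP and 85.2 for Wnt3a, and that of miR-328, at 112 and 95.02, lay near the detection limits, where differences are compressed.

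**Figure D4:**
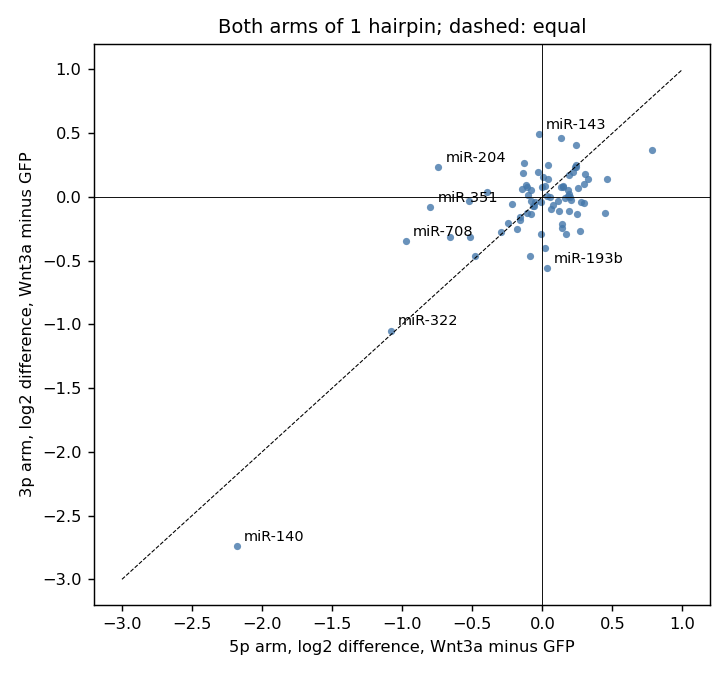
Log2 difference, Wnt3a minus GFP, of the 5p arm (horizontal axis) and the 3p arm (vertical axis) of the 78 hairpins with both arms detected, 1 point each. The dashed line marks equal differences. miR-322 lies near the line, miR-140 lies lowest with a gap of 0.56 between its arms, and miR-204 lies off the line, with its arms at -0.74 and 0.23.

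Across the 502 miRNAs with a sequence, the difference followed base composition. Pearson's r between the share of G and C in the mature miRNA and the Wnt3a minus GFP difference was 0.29 and Spearman's rho 0.32, across miRNAs that share 2 arrays and are not independent. The same r was -0.07 for Wnt4 minus GFP and 0.04 for Wnt5a minus GFP. Against the mean of the Wnt4 and Wnt5a arrays, which leaves out the GFP array, it was 0.31. For the share of G alone r was 0.31 on the Wnt3a array, 0.13 on the Wnt4 array and 0.21 on the Wnt5a array. On the Wnt3a array r was -0.09 for C, -0.13 for A and -0.21 for U. Against GFP the relation with G and C content thus lay with G and not with C. Against the mean of the Wnt4 and Wnt5a arrays r was 0.25 for G and 0.00 for C, beside 0.31 for G and C together.

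By ranges of G and C content, the median difference was -0.12 below 45% (61 miRNAs), -0.06 from 45% to 55% (126 miRNAs), 0.01 from 55% to 65% (162 miRNAs) and 0.06 from 65% (153 miRNAs). The share of miRNAs above 0 was 27.9%, 35.7%, 50% and 62.1% in the same order. In the range from 65%, 4 miRNAs were at least 1.5-fold higher and none lower. On the Wnt4 and Wnt5a arrays the 4 medians stayed between -0.03 and 0.05. The 9 miRNAs at least 1.5-fold higher had a median G content of 45.5% and a median G and C content of 63.6%, whereas the 12 lower ones with a sequence had 22.7% and 46.5%, and all 502 had 36% and 59.1%. Among the higher ones miR-21a-5p had the lowest content, with 22.7% G and 36.4% G and C, and miR-31-5p, with 54.5% G and C, and miR-6937-5p, with 54.2%, also lay below the median of all.

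The relation did not rest on the miRNAs past 1.5-fold, since r was 0.33 for G and C and 0.34 for G over the 481 miRNAs within 1.5-fold. It was 0.33 and 0.43 over the 205 with at least 200 units on both arrays, a filter chosen after seeing the data. The level of a miRNA itself had an r of 0.02 with the difference. For G content r was -0.05 with the background column subtracted. Whether labelling, hybridisation or the cells differed with base composition was not tested, and on 1 array per group these cannot be told apart. The values of the seed groups and families above are therefore given with this gradient in view: miR-30c-5p has 43.5% G and C and miR-7047-5p 65.2%. Below 45% and from 45% to 55% G and C, 27.9% and 35.7% of miRNAs were above 0, against 48% of all 612.

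**Figure D5:**
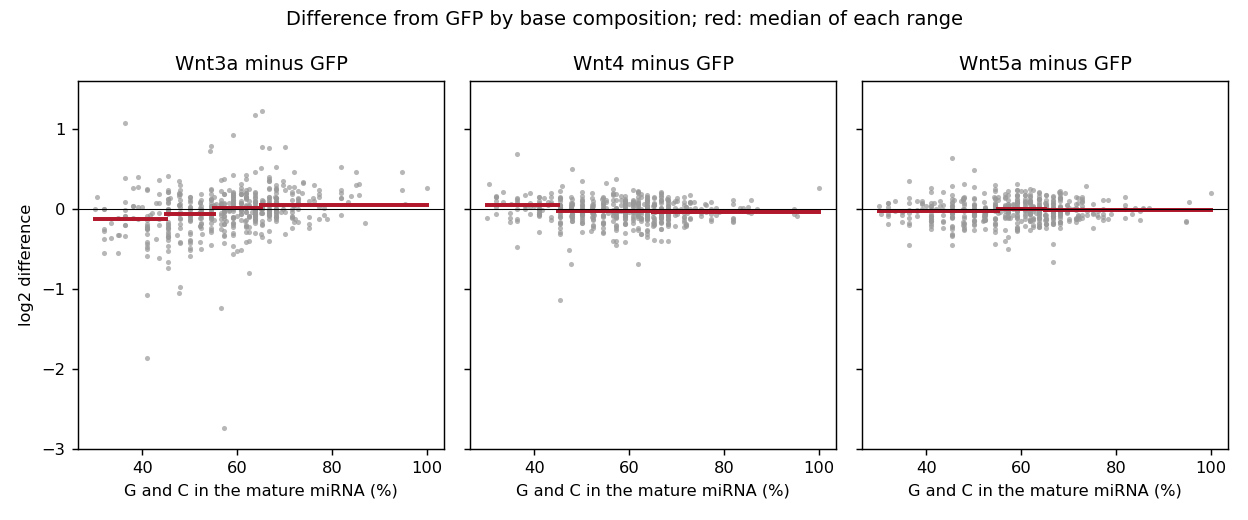
Log2 difference from the GFP array (vertical axis) against the share of G and C in the mature sequence (horizontal axis, %) for the Wnt3a, Wnt4 and Wnt5a arrays, 1 point for each of 502 miRNAs. Red lines are the medians of 4 ranges of G and C content. They step from -0.12 to 0.06 for Wnt3a and stay between -0.03 and 0.05 for the other arrays.

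The labels' cell type was set against miRNAs that mark other cells. Of the marker lists for muscle, nerve, blood, miR-200-positive epithelium, endothelium, liver and pluripotent cells, none had a detected member past 1.5-fold. Of all 612 miRNAs, 1.47% were at least 1.5-fold higher and 2.29% lower. At such shares lists with so few detected members can hold none, so this count says little about the markers. The summed signal of the neural list was 2442 units for GFP and 2157 for Wnt3a over 22 probes, and that of the blood list 1731 and 1596 over 12 probes, where a blank spot averaged 90.8 and 72.8 units. Both probes of miR-122, the liver marker, were below the limit on both arrays. miR-126a-3p, the endothelial marker, was at 109 units for GFP and 82.5 units for Wnt3a, near both limits. Some members of other lists were well above both limits. For GFP and Wnt3a, miR-486b-3p of the blood list gave 404 and 406 units. miR-290a-5p of the pluripotency list gave 332 and 329 units, and miR-128-2-5p of the neural list 313 and 331 units. An array of miRNAs holds no probe for the Wnt3a transcript, so overexpression itself was not checked.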

How the data were processed

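Per the labels' protocols, total RNA of 4 MC3T3-E1 cultures was labelled with Hy5, and per the file headers each array was scanned at 635 nm at 3 gains. The gains are not given, so equal settings are not known. The deposited scanner files hold an intensity, the spot median, for 3200 spots per array. Of 1900 miRNA probes, 2 that the GFP file flags as bad were left out. The authors' processed table, used as an alternative, lists an intensity that was found to be the blank-subtracted spot median scaled by a factor of its array (to within 0.051 units).

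Spot medians were corrected with normexp (offset 50) over all spots, and the 1898 miRNA probes were quantile-normalized over the 4 arrays (limma 3.58.1, R 4.3.3). The remaining steps used Python 3.11.15, pandas 2.3.3, numpy 2.4.6, scipy 1.17.1 and matplotlib 3.10.9. The detection limit was 2 SD above the mean of blank spots, over their middle 95%. Log2 differences were taken for miRNAs detected on both arrays. A miRNA detected on only 1 array gives a bound against the other array's limit. The SE came from control probes with replicate spots, separately below and above 200 units. No p-value was computed with 1 array per group, and the number of arrays limits the precision. The fold counting was tested on simulated data.

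The text names all miRNAs at least 1.5-fold different, the 10 brightest, the 3 brightest detected on 1 array only each way, members of small lists and seed groups, the 4 brightest and extreme members of larger ones, and the 5 hairpins whose arms differ most. The miRNAs, the 38 lists and these rules were chosen with earlier results of these data known. The files name no genome build. RefSeq (GRCm38.p6) served for sequences and chromosomes, with no coordinates given. In all, 16 alternatives were tried.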

Additional observations from a re-analysis of the deposited data

How the results depend on the processing

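Counts of miRNAs at least 2-fold different, 3 higher and 6 lower, stayed within 1.5 times under most of the 16 alternatives. Exceptions were subtraction of each array's blank mean (11 higher, 46 lower), subtraction of the background column (91 and 76), the deposited table (528 and 3, where the median of all miRNAs was 1.47), that table rescaled on its miRNAs common to the 4 arrays (18 and 18), and, for the lower ones, a minimum of 200 units on both arrays (3), a filter chosen after seeing the data. Of the 3 higher and 6 lower miRNAs, 3 and 6 were among those counted after blank subtraction, 0 and 2 with the background column, and 1 and 6 in the rescaled table. Scaling on the bright control probes gave 3 higher and 4 lower, with the median of all miRNAs at 0.12 and 72.7% above 0 in place of 48%, and the higher share of the 2-fold calls was 42.9% in place of 33.3%. That share was 37.5% without background correction, 19.3% after blank subtraction, 54.5% with the background column, 25% with scaling to the median or the 75th percentile, 99.4% in the deposited table and 50% in its rescaled form. At least 1.5-fold, 9 higher and 14 lower became 12 and 27 with an offset of 16, 40 and 92 after blank subtraction, 160 and 136 with the background column, 601 and 3 in the deposited table, 70 and 56 in its rescaled form, 16 and 11 on the bright controls, and 7 and 8 from 200 units. The correlation of the difference with G content, 0.31, was -0.051 with the background column, 0.17 with no filter on dim probes, 0.19 in both forms of the deposited table and 0.43 from 200 units. That with G and C content, 0.29, was 0.026 with the background column and 0.15 with no filter. With the background column miR-503-5p (3.88), miR-322-3p (0.24) and miR-7036a-5p (-0.83) changed sign, as did miR-322-5p (0.038) in the deposited table. The deposited table carries array factors of 0.93 for Wnt3a and 0.40 for GFP, which shift its differences upward. The cause of the other changes was not tested. No paired analysis was possible because each group has 1 array and the labels carry no replicate numbers. Signals within a few units of the blank spots carry compressed differences, which limits what can be seen for dim miRNAs.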

Other observations

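Among the miRNAs detected on only 1 of the 2 arrays, miR-155-5p, a miRNA of activated immune cells, was the brightest on the Wnt3a side. It gave 96.8, 69.9 and 86.6 units on the GFP, Wnt4 and Wnt5a arrays, all below their limits, and 135 units on the Wnt3a array, so after background correction and normalization its level there was at least 1.44-fold higher than on the GFP array. In units before correction, which include the blank level, the ratio was 1.39. Next came miR-3475-5p, at least 1.20-fold higher on the corrected scale (a ratio of 1.10 in units), and miR-135a-2-3p, for which the bound was 1.15-fold. Of the 5 miRNAs detected on the GFP array alone, the brightest were miR-1968-3p, at least 1.30-fold lower with Wnt3a, miR-202-5p, at least 1.26-fold, and miR-142a-5p, at least 1.21-fold.

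The 10 probes with the most signal on both arrays included miRNAs with little known function. miR-6366 was at 0.14, miR-3968 at -0.34, miR-2137 at 0.31, miR-1902 at 0.00, miR-5100 at -0.41 and miR-5126 at 0.26, and let-7a-5p and let-7f-5p were at -0.19 and 0.00. In the X-linked cluster of miR-188, miR-362, miR-500 and miR-532, 5 of the 6 that were detected lay below 0, against 50.2% of all 612. The median of the 6, -0.15, turned above 0 in the deposited table. Those members gave between 109 and 132 units on the GFP array, near its limit.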
